A study of Mus musculus with 36 samples.

Results

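The 10 genes of ATP to adenosine conversion and adenosine signalling were followed through mouse striatal RNA: the surface enzymes Entpd1, Entpd3 and Nt5e, the receptors Adora1, Adora2a, Adora2b and Adora3, and the clearance genes Ada, Adk and Slc29a1. They were chosen by symbol, and all 10 were found in both deposited tables, on 11 of 22560 lines with values in one table and 11 of 22380 in the other. The extra line came from Adora3, whose symbol stands on 2 lines of each table. One carries the Ensembl gene that GENCODE M21 calls Adora3. The other carries a gene that GENCODE M21 calls Tmigd3, which also lies on chromosome 3, and it is kept apart below. GENCODE M21 places Adora1 on chromosome 1, Ada on 2, Entpd3 and Nt5e on 9, Adora2a on 10, Adora2b on 11, Adk on 14, Slc29a1 on 17 and Entpd1 on 19.

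Extracellular ATP released by active or damaged cells is cut by the ectonucleotidases CD39 (Entpd1) and NTPDase3 (Entpd3) to AMP, and AMP is cut by CD73 (Nt5e) to adenosine. Adenosine acts on 4 G protein coupled receptors: A1 and A3 couple to inhibitory G proteins and lower cyclic AMP, whereas the receptors of Adora2a and Adora2b couple to stimulatory G proteins and raise it. In the striatum A1 is widespread, and Adora2a is known as the receptor gene of D2 spiny neurons. Adenosine is removed by the equilibrative transporter ENT1 (Slc29a1), by adenosine kinase (Adk), which makes AMP from it, and by adenosine deaminase (Ada), which makes inosine.

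RNA was collected by translating ribosome affinity purification, in which an eGFP tag on the ribosomal protein L10a marks the ribosomes of one cell type. The unbound RNA is what the pull-down left behind. In the first set of animals the tag was in microglia (genotype Camk2a-tTA; TetO-Chrm3 or TetO-Chrm4; Cx3cr1CreErt2/+(Litt); Eef1a1LSL.eGFPL10a/+, with tamoxifen given at 4 to 6 weeks of age). Its Chrm3 or Chrm4 designer receptor was driven in Camk2a-tTA neurons, and each animal received the receptor ligand clozapine-N-oxide (CNO) or saline 2 h before collection. Chrm3 mice gave 3 microglial pull-downs with CNO and 3 with saline, and Chrm4 mice gave 2 with CNO and 2 with saline. Unbound RNA of the same 4 conditions gave 3, 3, 2 and 2 libraries. In the second set the tag was in D1 neurons (Drd1-eGFPL10a), with 3 pull-downs labelled IL34-KO and 4 labelled control, and 4 unbound libraries of each label. The source label adds Drd1-Cre to the IL34-KO mice and reads Il34-/- for both, so what the controls carry at Il34 is not clear from it. No column heading ties a pull-down to its own unbound RNA, and no label states that libraries of a group came from separate animals, so the p-values measure the spread between libraries, which may be technical. A further sample of single nuclei was not analysed here.

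Levels were deposited as RPKM, which divides a gene's reads by its length and by the depth of the library. The whole reads behind them could be recovered and came to between 12.1 M and 109 M per library in the microglial set and between 11.3 M and 41.1 M in the D1 set. The summed level of 12 microglial marker genes was 4999 to 7635 RPKM in the microglial pull-downs and 33.4 to 61.3 RPKM in their unbound RNA. The summed level of 7 D1 neuron markers was 914 to 1405 RPKM in the D1 pull-downs and 160 to 236 RPKM in the unbound RNA of that set. The microglial pull-downs were not free of neuronal RNA: 6 general neuronal markers summed to 477 to 947 RPKM in them, against 2391 to 4434 RPKM in unbound RNA. In the D1 set the reads in genes per unit of the authors' scaling were 0.517 to 0.599 in the unbound libraries and 0.997 to 1.01 in the pull-downs, relative to the first pull-down library. Unbound RPKM of that set therefore stand low beside pull-down RPKM, and the changes of the adenosine genes that passed the filter are given for the D1 set both as deposited and on the recovered reads. Values of other genes between D1 pull-down and unbound RNA are as deposited.

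The surface enzymes divided between cell types. Entpd1 was highest in microglial RNA: the 5 saline pull-downs held 81.3, 109, 58.4, 72.2 and 95.7 RPKM, against 3.46, 2.27, 2.88, 2.73 and 2.15 RPKM in the 5 saline unbound libraries. The groups did not overlap, and the lowest of all 10 microglial libraries (58.4 RPKM) was far above the highest of the other 25 libraries (3.78 RPKM, in a control D1 pull-down). In limma on log2(RPKM + 1), fitted to all genes with a mean of at least 1 RPKM, Entpd1 was higher in the microglial pull-down by 4.49 ± 0.15 (log2, SE; 22.5-fold; adjusted p = 3.0e-15, Benjamini-Hochberg over 11721 genes). Of those genes 65.5% were called in this comparison at an adjusted p under 0.05, so the count is read against that share. 8 of the 9 adenosine genes tested were called, 3 higher and 5 lower; their median change was -0.65, against -0.02 for all genes tested.

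CD73 went the other way. Nt5e was at 1.92, 0.612, 1.88, 2.54 and 1.30 RPKM in the saline microglial pull-downs and at 2.99, 3.65, 3.59, 4.77 and 3.07 RPKM in saline unbound RNA, again without overlap. Its change was -0.84 ± 0.21 (log2, SE; adjusted p = 0.00165, limma). Within a microglial pull-down the first enzyme thus outweighed the second on a per-length scale: Entpd1 stood at 28.4 to 179 times the Nt5e level over the 10 libraries (median 67.5), against 0.572 to 1.16 times (median 0.752) over the 10 unbound libraries. How much of the Nt5e RNA in the pull-downs came from other cells was not tested. Entpd3, the other ATP-cutting enzyme, was at 0.262 to 0.858 RPKM in saline microglial pull-downs, against 0.797 to 2.18 RPKM in saline unbound RNA. It was lower (log2 change -0.65 ± 0.22, SE; adjusted p = 0.0127, limma), with groups that overlapped. It passed in each of the 15 alternatives in which it was tested (adjusted p at most 0.0314). Without the saline unbound library at 2.18 RPKM, and with the compared groups fitted alone, it was under the filter and was not tested.

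In D1 neurons the balance of the enzymes differed. Entpd3 held 2.27, 2.70, 2.60 and 3.44 RPKM in the control D1 pull-downs, against 0.858, 1.03, 1.05 and 1.39 RPKM in control unbound RNA. Every pull-down lay above every unbound library. Its change was 0.85 ± 0.12 (log2, SE; adjusted p = 2.4e-06, limma on RPKM as deposited). That comparison as deposited has a median change of 0.81 over all 10266 genes and calls 91.7% of them, so Entpd3 was 0.04 above the median gene. On recovered reads (voom), where 58.9% of genes are called and the median gene is at 0.15, Entpd3 was higher by 0.55 (adjusted p = 0.0210). Nt5e was at 1.505, 1.65, 1.54 and 1.01 RPKM in control D1 pull-downs and at 2.69, 3.69, 3.90 and 2.21 RPKM in control unbound RNA. It was lower on both scales, with a log2 change of -0.75 ± 0.19 as deposited (SE; adjusted p = 0.00120, limma) and of -1.98 with voom (adjusted p = 5.3e-05). Entpd1 was low in this set: 2.48, 2.74, 3.78 and 2.44 RPKM in control D1 pull-downs, against 1.70, 2.21, 2.56 and 1.51 RPKM in control unbound RNA. Its direction depended on the scale, at 0.37 ± 0.12 as deposited (log2, SE; adjusted p = 0.0105, limma) and -0.34 with voom (adjusted p = 0.111), and 0.44 below the median gene in the deposited values (log2 change minus median -0.44).

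**Figure D1:**
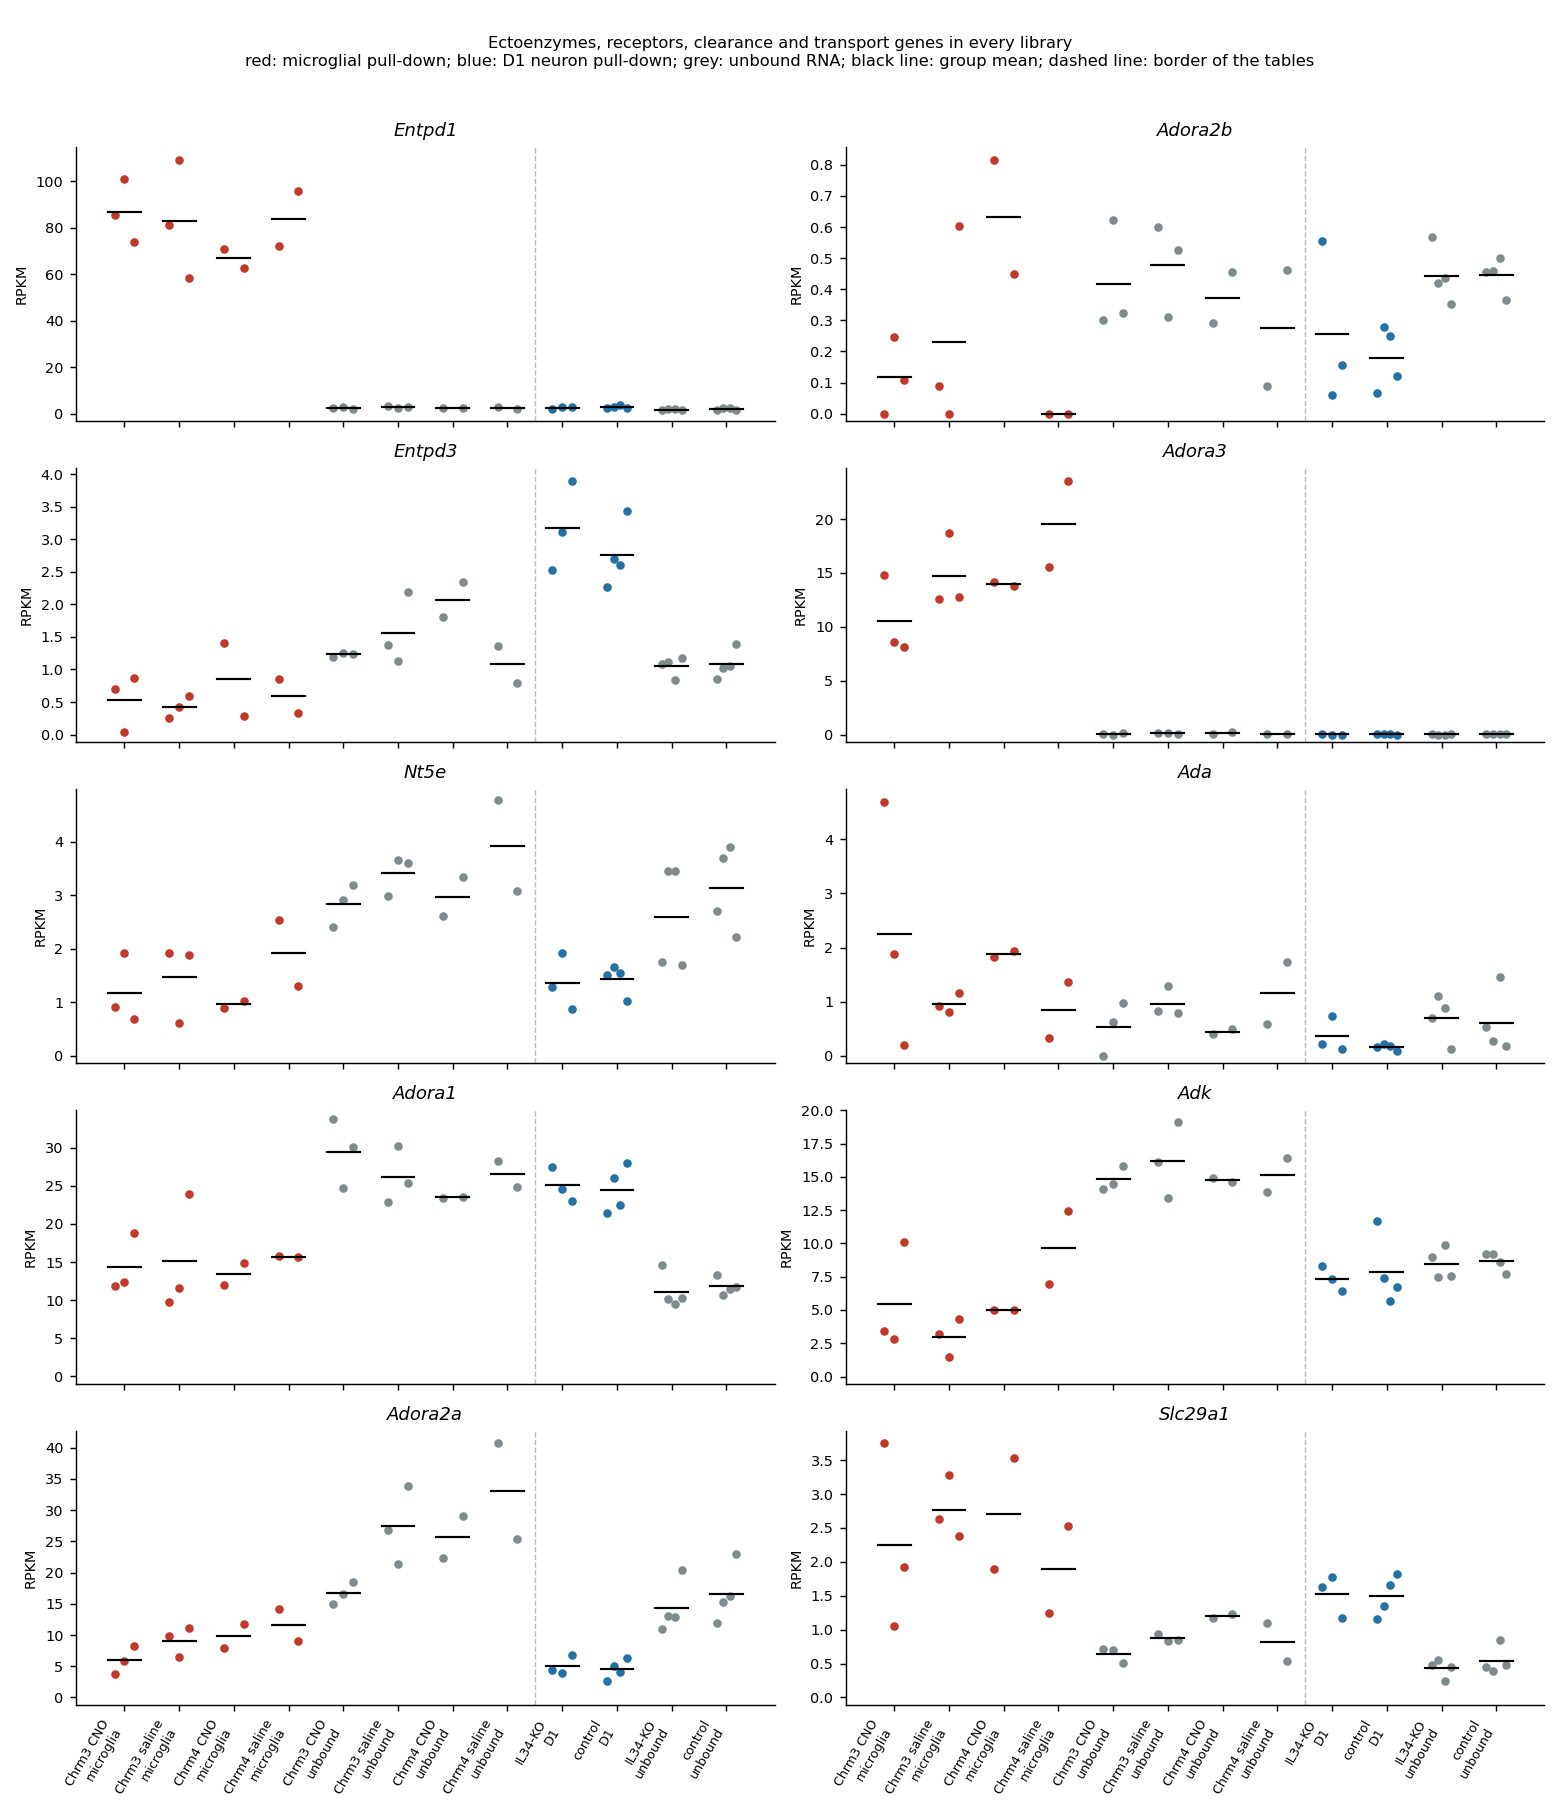
RPKM of each of the 10 genes (vertical axis, linear, one panel per gene) in each library of the 12 groups (horizontal axis); points are libraries, black lines are group means, and the dashed line parts the 2 tables. Entpd1 and Adora3 stand out in the 10 microglial pull-downs, at 58.4 to 109 and 8.16 to 23.5 RPKM, and Adora2a is lower in both kinds of pull-down than in unbound RNA of its own table.

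The receptors divided too. Adora3, the A3 receptor, was at 12.6, 18.7, 12.8, 15.6 and 23.5 RPKM in saline microglial pull-downs, on 754 to 3147 reads, against 0.125, 0.133, 0.0501, 0.0320 and 0.0188 RPKM in saline unbound RNA, on 1 to 25 reads. It was higher in the microglial pull-down by 4.00 ± 0.18 (log2, SE; adjusted p = 1.7e-13, limma). The pseudocount of 1 RPKM limits this value, since the unbound levels lie far below it: on recovered reads (voom) the change was 7.84 (adjusted p = 6.7e-07). In the 7 D1 pull-downs Adora3 had 0 to 5 reads, with 3 libraries at 0, and in the 8 unbound libraries of that set 0 to 10 reads, with 2 at 0. The second line with the symbol Adora3 (Tmigd3 in GENCODE M21) was at 0 to 2.15 RPKM in the microglial set, with 5 of 10 pull-downs and 5 of 10 unbound libraries at 0, and at 0 in all 15 libraries of the D1 set. How reads in the part shared by both genes were counted is not given in the sources used here.

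Entpd1 and Adora3, together with Slc29a1, were the 3 adenosine genes called higher in the microglial pull-down. Their promoter windows are shown because each holds GAGGAAG, a sequence with the GGAA core that ETS factors such as the myeloid factor PU.1 bind. The windows run from 250 bases before to 50 bases after a RefSeq transcript start, in GRCm38.p6, 5′ to 3′ on the gene's strand, with matches to GAGGAAG or its reverse complement CTTCCTC in capitals.
Entpd1, the second of its 2 windows, chr19:40659520-40659819, plus strand: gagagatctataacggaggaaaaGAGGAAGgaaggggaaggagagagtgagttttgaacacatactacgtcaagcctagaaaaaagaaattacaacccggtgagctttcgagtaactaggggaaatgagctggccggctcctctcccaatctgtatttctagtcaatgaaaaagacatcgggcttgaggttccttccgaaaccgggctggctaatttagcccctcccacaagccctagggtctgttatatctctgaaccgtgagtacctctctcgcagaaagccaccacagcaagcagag
Adora3, chr3:105904171-105904470, plus strand: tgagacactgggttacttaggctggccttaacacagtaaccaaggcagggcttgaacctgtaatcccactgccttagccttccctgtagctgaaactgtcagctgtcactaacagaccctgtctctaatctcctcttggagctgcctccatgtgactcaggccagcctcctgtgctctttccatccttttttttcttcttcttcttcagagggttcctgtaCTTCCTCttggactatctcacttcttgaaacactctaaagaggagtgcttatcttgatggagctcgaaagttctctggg
Slc29a1, 1 of its 8 windows, chr17:45597102-45597401, minus strand: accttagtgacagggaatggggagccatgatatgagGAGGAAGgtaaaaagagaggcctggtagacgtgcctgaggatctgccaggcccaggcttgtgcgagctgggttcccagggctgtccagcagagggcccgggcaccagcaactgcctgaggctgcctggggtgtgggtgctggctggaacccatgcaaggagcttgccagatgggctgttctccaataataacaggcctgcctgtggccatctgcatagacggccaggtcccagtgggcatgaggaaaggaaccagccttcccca
The match begins 227 bases before the transcript start in Entpd1, 29 before it in Adora3 (reverse strand) and 214 before it in Slc29a1. Of the 9 adenosine genes with a window, these 3 hold a match (33.3%), as do 15.4% of all 27025 genes. By window the share was 3 of 19 (15.8%), against 13.6% of all 32851 windows. The letters were chosen with the windows in view, so neither share is evidence of enrichment, and a match is neither a site nor a cause. Adora2a had no window in the table.

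Adora2a was lower in both pull-downs than in unbound RNA. Saline microglial pull-downs held 9.80, 6.46, 11.04, 14.2 and 9.09 RPKM and saline unbound RNA held 26.9, 21.4, 33.9, 40.7 and 25.3 RPKM, with no overlap. The change was -1.47 ± 0.20 (log2, SE; adjusted p = 3.3e-06, limma). Control D1 pull-downs held 2.66, 5.01, 4.09 and 6.35 RPKM, against 11.9, 15.2, 16.2 and 23.0 RPKM in control unbound RNA. Adora2a was lower in the D1 pull-down, with a log2 change of -1.68 ± 0.23 as deposited (SE; adjusted p = 2.0e-06, limma) and of -2.70 with voom (adjusted p = 7.9e-07). The D2 neuron markers stood the same way in these libraries: Drd2, the D2 dopamine receptor, changed by -1.55 ± 0.18 and Penk, the enkephalin precursor, by -1.46 ± 0.14 in the D1 pull-down as deposited (log2, SE; adjusted p = 2.8e-07 and 5.4e-08, limma). The 5 D2 markers still summed to 119 to 184 RPKM in all D1 pull-downs and 311 to 496 RPKM in the unbound RNA of that set. In the saline microglial pull-downs they summed to 112 to 245 RPKM, against 359 to 667 RPKM in saline unbound RNA. The part of such RNA in the Adora2a level of either kind of pull-down was not tested.

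Adora1 was the most abundant adenosine receptor of D1 neurons. It held 21.4, 26.0, 22.5 and 28.0 RPKM in control D1 pull-downs, and in each of the 7 D1 pull-downs it exceeded Adora2a by 3.40 to 8.04 times per length. Control unbound RNA held 13.4, 10.7, 11.4 and 11.7 RPKM. The change as deposited was 0.99 ± 0.12 (log2, SE; adjusted p = 6.1e-07, limma), but 0.18 above the median gene, and 0.22 on recovered reads, where it was not called (adjusted p = 0.105). In the microglial set Adora1 was at 9.75 to 24.0 RPKM in saline pull-downs, against 22.9 to 30.2 RPKM in saline unbound RNA. It was lower there (log2 change -0.80 ± 0.19, SE; adjusted p = 9.5e-04, limma), with groups that overlapped. The 6 general neuronal markers had a median change of -2.01 in the same contrast, and how much of the Adora1 RNA in the pull-down came from neurons was not tested.

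Adora2b was scarce in every group. Its highest library was at 0.815 RPKM, in a Chrm4 CNO microglial pull-down, and 4 of the 10 microglial pull-downs had no read. It passed the filter in no fit. By exact permutation of library labels (two-sided), control D1 pull-downs (0.179 ± 0.102 RPKM, SD, n = 4) were below control unbound RNA (0.445 ± 0.057 RPKM, SD, n = 4) at p = 0.0286, the smallest that 4 against 4 can give, and 0.143 after adjustment over the 10 such tests made. Scaled to reads in listed genes, the means were 0.178 and 0.788 RPKM and the exact p was the same. The saline microglial pull-downs (0.138 ± 0.263 RPKM, SD, n = 5) and unbound RNA (0.397 ± 0.203 RPKM, SD, n = 5) gave an exact p of 0.135.

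Of the clearance genes, Adk had less and Slc29a1 more RNA in the microglial pull-down than in unbound RNA. Adk, adenosine kinase, was at 3.20, 1.49, 4.33, 6.91 and 12.4 RPKM in saline microglial pull-downs and at 16.2, 13.4, 19.1, 13.9 and 16.4 RPKM in saline unbound RNA. The groups did not overlap, and the pull-downs varied more among themselves (SD 4.26 RPKM) than the unbound libraries did (SD 2.30 RPKM). The change was -1.55 ± 0.25 (log2, SE; adjusted p = 2.0e-05, limma). The 8 astrocyte markers summed to 119 to 176 RPKM in the saline microglial pull-downs and 289 to 340 RPKM in saline unbound RNA. How much of the Adk RNA in these pull-downs came from other cells was not tested. Adk was at 11.7, 7.40, 5.70 and 6.69 RPKM in control D1 pull-downs, against 9.21, 9.21, 8.57 and 7.74 RPKM in control unbound RNA, and was not called as deposited (-0.17 ± 0.15, adjusted p = 0.297, limma). It stood 0.97 below the median gene (log2 change minus median -0.97), and it was called lower on recovered reads (-1.05, adjusted p = 7.1e-05, voom) and without the first control D1 library (-0.35, adjusted p = 0.00746, limma).

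Ada, adenosine deaminase, was low: 0.317 to 1.35 RPKM in saline microglial pull-downs, against 0.585 to 1.73 RPKM in saline unbound RNA, a change of -0.09 ± 0.32 that was not called (adjusted p = 0.807, limma). Per length, Adk exceeded Ada in every D1 library, by 10.1 to 73.1 times in the D1 pull-downs and 5.93 to 64.1 times in their unbound RNA. Over the 10 microglial pull-downs the same ratio ran from 0.732 to 50.02 with a median of 3.11, against 9.48 to 37.6 with a median of 23.1 over the 9 unbound libraries with an Ada read. Ada did not pass the filter in the D1 set. Control D1 pull-downs (0.161 ± 0.049 RPKM, SD, n = 4) and unbound RNA (0.605 ± 0.580 RPKM, SD, n = 4) gave an exact permutation p of 0.0857, and 0.286 after adjustment over 10 tests. Scaled to reads in listed genes, those means were 0.160 and 1.04 RPKM and the exact p was 0.0286, the smallest possible. That last p was not adjusted.

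Slc29a1, the ENT1 transporter, was at 2.63, 3.28, 2.38, 1.25 and 2.54 RPKM in saline microglial pull-downs and at 0.940, 0.832, 0.841, 1.10 and 0.532 RPKM in saline unbound RNA. Every pull-down lay above every unbound library. It was higher by 0.86 ± 0.22 (log2, SE; 1.82-fold; adjusted p = 0.00176, limma), and by 1.41 on recovered reads (adjusted p = 0.00388, voom). In the comparison of D1 pull-down with unbound RNA it was below the filter. Control D1 pull-downs averaged 1.496 ± 0.297 RPKM and unbound RNA 0.545 ± 0.207 RPKM (SD, n = 4 each), with an exact permutation p of 0.0286. That is the smallest p that 4 against 4 can give, and it was 0.143 after adjustment over 10 tests. Scaled to reads in listed genes, those means were 1.49 and 0.961 RPKM and the exact p was 0.0857.

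**Figure D2:**
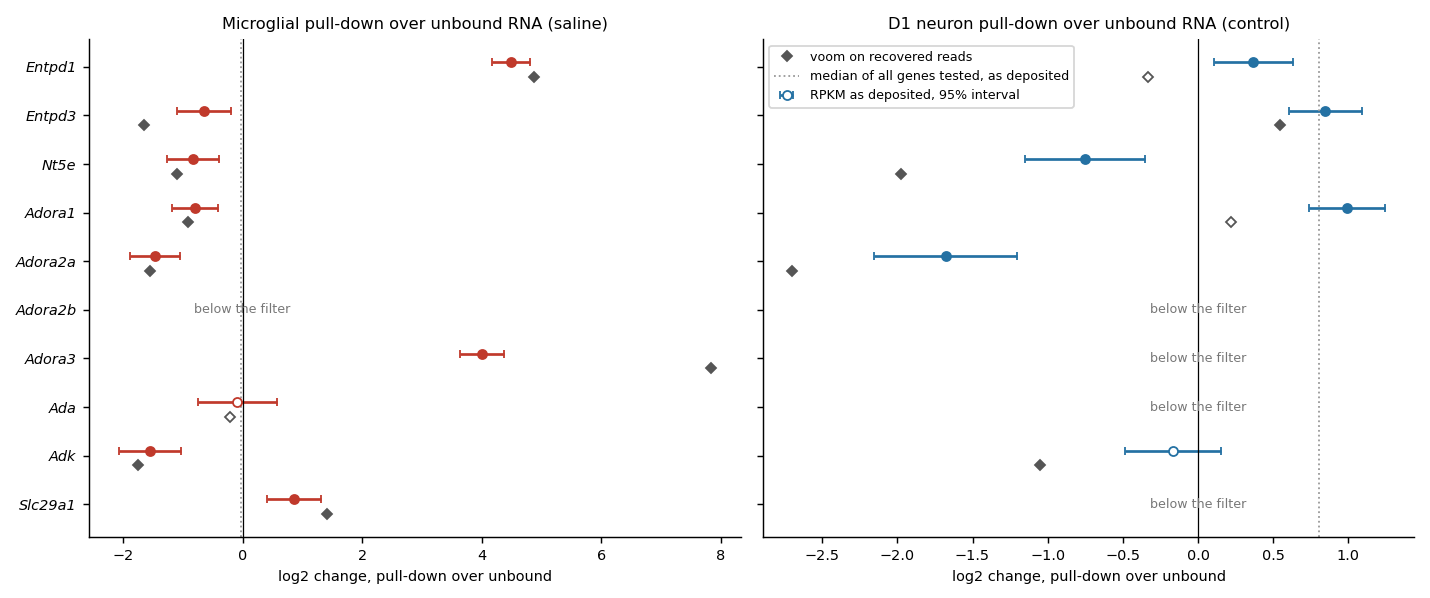
Log2 change of each gene between pull-down and unbound RNA, for microglia in saline mice (left) and D1 neurons in control mice (right); circles with bars are limma estimates on log2(RPKM + 1) with 95% intervals, diamonds are voom estimates on recovered reads, filled where called, and the dotted line is the median of all genes tested. Entpd1 at 4.49 and Adora3 at 4.00 lead the left panel, and in the right panel the diamonds lie lower than the circles for all 6 genes.

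Other genes of the pathway were followed in the same 2 comparisons. Of 6 other nucleotide-cutting enzymes tested in the microglial comparison none was called higher and 3 were called lower, and the 6 had a median of -0.43. Those 3 were Enpp2, which makes lysophosphatidic acid, at -1.21 ± 0.14, and the NTPDases Entpd6 at -0.66 ± 0.24 and Entpd5 at -0.49 ± 0.19 (log2, SE; adjusted p = 3.7e-07, 0.0228 and 0.0265, limma). Of 13 genes of nucleoside transport and metabolism 4 were called higher and 3 lower, with a median of -0.03. The lysosomal nucleoside transporter Slc29a3 was higher by 3.42 ± 0.13 and the phosphorylase Pnp, which acts on inosine after Ada and has a near-identical neighbouring copy that could share its reads, by 4.29 ± 0.19, while guanine deaminase (Gda) was lower, at -1.11 ± 0.15 (log2, SE; adjusted p = 2.2e-14, 1.3e-13 and 2.2e-06, limma). Of 20 genes of receptor coupling 3 were called higher and 15 lower, with a median of -0.93. The inhibitory G protein subunit Gnai2 was higher by 2.89 ± 0.12, whereas Gnao1, a G protein subunit of neurons, was at -1.61 ± 0.09 and Ppp1r1b, the DARPP-32 of spiny neurons, at -2.48 ± 0.17 (log2, SE; adjusted p = 4.2e-14, 1.0e-11 and 1.5e-10, limma).

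In the D1 comparison as deposited, where 91.7% of genes were called, the same lists had 3 higher and 2 lower of 5, 11 higher and 1 lower of 13, and 16 higher and 0 lower of 19. Their medians were 0.51, 0.93 and 1.08, against 0.81 for all genes. The receptor coupling genes with the smallest p were Pde1b and Pde10a, phosphodiesterases of spiny neurons, at 1.62 ± 0.12 and 1.36 ± 0.12, and Prkar2b, a regulatory subunit of protein kinase A, at 1.28 ± 0.10 (log2, SE; adjusted p = 3.7e-09, 1.7e-08 and 5.3e-09, limma). Among the other enzymes Entpd6 was at 0.81 ± 0.09, Entpd5 at -0.82 ± 0.11 and Enpp2 at -1.48 ± 0.21 (log2, SE; adjusted p = 2.2e-07, 3.3e-06 and 4.7e-06, limma). Of the metabolism genes Gda was at 1.17 ± 0.09, Hprt, which salvages hypoxanthine, at 1.37 ± 0.11 and Nt5c2, a cytosolic nucleotidase, at 0.93 ± 0.08 (log2, SE; adjusted p = 2.3e-09, 5.7e-09 and 1.9e-08, limma). No value on recovered reads was taken for these genes.

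The genes closest in pattern were ranked over the 12 group means of log2(RPKM + 1), centred within each table, among 10084 genes with a mean of at least 1 RPKM in both. The means share libraries of the same kind, and Pearson's r is a description. For Entpd1 they were Ifngr1 (r = 1.00), Lgmn (r = 0.999) and Snx5 (r = 0.999), and for Adora2a Opalin (r = 0.986), Dock5 (r = 0.977) and Acsbg1 (r = 0.975). For Nt5e they were Plekhg1 (r = 0.988), Penk (r = 0.985) and Olig2 (r = 0.981), and Nt5e and Adora2a themselves had r = 0.946. For Adora1 they were Stim2 (r = 0.993), Zfp239 (r = 0.993) and Cttnbp2 (r = 0.992), for Entpd3 Erlec1 (r = 0.972), Slc45a1 (r = 0.970) and Cnrip1 (r = 0.970), and for Adk 1700019D03Rik (r = 0.987), Kndc1 (r = 0.969) and S100a6 (r = 0.962).

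CNO in Chrm3 mice asks whether driving neurons changes these genes in microglia and in the surrounding tissue. In unbound RNA the Chrm3 gene and activity genes differed by the test. Chrm3 was at 6.07 to 7.20 RPKM with CNO and 2.12 to 3.54 RPKM with saline (log2 change 1.06 ± 0.17, SE; adjusted p = 0.0224, limma). Unbound RNA of the Chrm4 mice held 3.31 and 4.57 RPKM of Chrm3 with saline, and 3.11 and 4.02 RPKM with CNO. Whether these reads come from the designer receptor or the mouse's own gene was not tested. The immediate early gene Fos was higher by 4.57 ± 0.65 (log2, SE; adjusted p = 0.0118, limma). Yet no adenosine gene was called in either fraction. In microglia 0 of 8 tested were called and none had an unadjusted p under 0.05, by limma, where 0.0436% of 11465 genes were called and 630 had an unadjusted p under 0.05. Voom on recovered reads called 0 as well. Entpd1 was at 85.4, 101 and 74.1 RPKM with CNO, against 81.3, 109 and 58.4 RPKM with saline. The 2 groups overlapped throughout, and the 95% interval of the change was -0.37 to 0.57 (log2; estimate 0.10). Adora3 was at 14.8, 8.55 and 8.16 RPKM with CNO and at 12.6, 18.7 and 12.8 RPKM with saline, a change of -0.47 with an interval of -1.03 to 0.09 (log2; adjusted p = 0.937, limma). 2 of its CNO libraries were below all saline ones and the third was among them.

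The other microglial levels of the Chrm3 mice overlapped between CNO and saline as well. Adk was at 3.44, 2.85 and 10.1 RPKM with CNO, against 3.20, 1.49 and 4.33 RPKM with saline (95% interval -0.27 to 1.46, log2). Ada spread widely with CNO, at 4.69, 1.88 and 0.202 RPKM, against 0.924, 0.799 and 1.15 RPKM with saline (95% interval -0.55 to 1.48, log2). The CNO libraries of Ada thus lay on both sides of all saline ones. Slc29a1 was at 3.75, 1.05 and 1.93 RPKM with CNO, against 2.63, 3.28 and 2.38 RPKM with saline. Nt5e was at 0.914, 1.92 and 0.678 RPKM with CNO, against 1.92, 0.612 and 1.88 RPKM with saline, and Adora1 at 11.9, 12.4 and 18.8 RPKM, against 9.75, 11.5 and 24.0 RPKM. Below the filter, Entpd3 was at 0.0365 to 0.864 RPKM with CNO and 0.262 to 0.594 RPKM with saline, and Adora2b at 0 to 0.247 RPKM and 0 to 0.603 RPKM.

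In unbound RNA of the Chrm3 mice, Adora2a had the largest difference of the tested adenosine genes. It was at 14.9, 16.5 and 18.5 RPKM with CNO, against 26.9, 21.4 and 33.9 RPKM with saline, and the groups did not overlap. The change of -0.67 ± 0.19 (log2, SE; 95% interval -1.08 to -0.25) had an unadjusted p of 0.00453 and did not pass the test over all genes (adjusted p = 0.169, limma). 0 of 6 adenosine genes tested were called, 1 had an unadjusted p under 0.05, and voom called 0. Over all 11123 genes 0.701% were called, and 1381 had an unadjusted p under 0.05. Across the alternatives the Adora2a change ran from -0.83 to -0.50, with adjusted p from 0.0907 to 0.459. D2 neuron markers lay lower in the same libraries without passing the test: Gpr6 was at 3.69 to 4.59 RPKM with CNO and 6.12 to 12.8 RPKM with saline (-0.93 ± 0.21, adjusted p = 0.0820), Drd2 at 47.1 to 57.5 and 57.3 to 88.0 RPKM (-0.46 ± 0.16, adjusted p = 0.256), and Penk at 258 to 415 and 290 to 432 RPKM (-0.15 ± 0.18, adjusted p = 0.777, limma; log2 changes with SE). All 5 D2 markers had a negative change, with a median of -0.42, as had all 8 shared spiny neuron markers, with a median of -0.44, against -0.07 for all genes. Markers of other cells shifted too. All 7 oligodendrocyte markers (median -0.34), all 7 interneuron markers (-0.14) and 10 of 11 microglial markers (-0.34) had a negative change. All 4 cortical glutamatergic markers tested (median 0.55) and 5 of 6 general neuronal markers (0.16) had a positive one. The part of these in the Adora2a difference was not tested, and in bulk RNA fewer cells of a type and less RNA per cell cannot be told apart. In the Chrm3 microglial pull-downs Adora2a was at 3.74, 5.88 and 8.16 RPKM with CNO and at 9.80, 6.46 and 11.04 RPKM with saline (-0.57 ± 0.30, adjusted p = 0.937, limma), with groups that overlapped. In these pull-downs all 8 spiny neuron markers (median -0.53) and all 4 D2 markers tested (-0.36) also had a negative change. So had all 7 oligodendrocyte markers (-0.50), all 8 astrocyte markers (-0.22) and 6 of 7 D1 neuron markers (-0.27). The median of all genes was -0.03. A positive change was seen for 5 of 6 general neuronal markers, 3 of 4 cortical glutamatergic markers tested (median 0.44) and 3 of 4 oligodendrocyte precursor markers (0.16). The part of RNA from other cells in this Adora2a difference was not tested.

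No other unbound level in the Chrm3 mice had an unadjusted p under 0.05. Adora1 averaged 29.5 ± 4.5 RPKM with CNO and 26.1 ± 3.7 RPKM with saline, Adk 14.8 ± 0.9 and 16.2 ± 2.9 RPKM, Nt5e 2.83 ± 0.40 and 3.41 ± 0.37 RPKM, and Entpd1 2.32 ± 0.325 and 2.87 ± 0.594 RPKM (SD, n = 3 each). The changes of these 4 lay between -0.22 and 0.17 (log2). Entpd3 was at 1.19, 1.26 and 1.24 RPKM with CNO, against 1.38, 1.12 and 2.18 RPKM with saline (-0.18 ± 0.19, log2, SE), which overlap. The 12 microglial markers summed to 33.4 to 41.2 RPKM with CNO and 47.4 to 61.3 RPKM with saline, without overlap, and none of the 11 tested was called; their part in the Entpd1 difference was not tested. Slc29a1, below the filter, was at 0.713, 0.702 and 0.507 RPKM with CNO, against 0.940, 0.832 and 0.841 RPKM with saline. These did not overlap, and 3 against 3 libraries cannot give an exact p below 0.1. Ada, at 0 to 0.975 RPKM with CNO and 0.779 to 1.28 RPKM with saline, Adora2b, at 0.301 to 0.624 and 0.310 to 0.601 RPKM, and Adora3, at 0 to 0.134 and 0.0501 to 0.133 RPKM, were under the filter and overlapped.

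Chrm4 mice had 2 libraries per group, and the test called no gene at all in either fraction (0% of 11465 genes in microglia and 0% of 11123 in unbound RNA; 433 and 559 genes with an unadjusted p under 0.05). Fos and Egr1 were not called here, so the label has no transcript check. Chrm4 itself was at 3.28 and 4.38 RPKM with CNO and at 5.04 and 4.14 RPKM with saline in unbound RNA. Whether those reads come from the designer receptor was not tested. In microglia Entpd1 was at 71.0 and 62.8 RPKM with CNO, against 72.2 and 95.7 RPKM with saline (-0.31 ± 0.27, adjusted p = 0.999, limma). Adora3 was at 14.2 and 13.8 RPKM with CNO, against 15.6 and 23.5 RPKM with saline (-0.43 ± 0.32, adjusted p = 0.999, limma). Ada was at 1.82 and 1.93 RPKM with CNO, against 0.317 and 1.35 RPKM with saline, and Adk at 5.02 and 5.0001 RPKM, against 6.91 and 12.4 RPKM. Nt5e was at 0.895 and 1.02 RPKM with CNO, against 2.54 and 1.30 RPKM with saline, and Adora1 at 12.01 and 14.8 RPKM, against 15.8 and 15.7 RPKM. The levels of Adora2a (7.99 and 11.7 RPKM with CNO, 14.2 and 9.09 RPKM with saline) and Slc29a1 (1.89 and 3.54 RPKM with CNO, 1.25 and 2.54 RPKM with saline) overlapped. Below the filter, Adora2b was at 0.815 and 0.450 RPKM with CNO and had no read in either saline library, and Entpd3 was at 1.41 and 0.287 RPKM with CNO, against 0.858 and 0.333 RPKM with saline. 2 libraries against 2 cannot give an exact p below 0.333.

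In unbound RNA of the Chrm4 mice Entpd3 was at 1.80 and 2.34 RPKM with CNO, against 1.36 and 0.797 RPKM with saline (0.57 ± 0.23, unadjusted p = 0.0302, adjusted p = 0.940, limma; log2, SE). It was the 1 gene of 6 with an unadjusted p under 0.05. Adora2a was at 22.3 and 29.1 RPKM with CNO, against 40.7 and 25.3 RPKM with saline, which overlap (-0.32 ± 0.23, adjusted p = 0.972, limma). Nt5e was at 2.61 and 3.33 RPKM with CNO, against 4.77 and 3.07 RPKM with saline, Entpd1 at 2.27 and 2.31 RPKM, against 2.73 and 2.15 RPKM, and Adk at 14.9 and 14.6 RPKM, against 13.9 and 16.4 RPKM. Adora1 was at 23.4 and 23.6 RPKM with CNO, against 28.2 and 24.8 RPKM with saline. The changes of these 4 lay between -0.29 and -0.03 (log2). Below the filter, Ada was at 0.397 and 0.492 RPKM with CNO, against 0.585 and 1.73 RPKM with saline, Slc29a1 at 1.17 and 1.23 RPKM, against 1.10 and 0.532 RPKM, Adora2b at 0.290 and 0.455 RPKM, against 0.0875 and 0.462 RPKM, and Adora3 at 0.0813 and 0.258 RPKM, against 0.0320 and 0.0188 RPKM. All 5 D2 neuron markers had a negative change here too, with a median of -0.57, against 0.007 for all genes. Among them Penk was at 260 and 314 RPKM with CNO and 561 and 450 RPKM with saline (-0.81 ± 0.23, adjusted p = 0.831, limma). All 7 interneuron markers (median -0.22), all 7 oligodendrocyte markers (-0.15) and 7 of 8 spiny neuron markers (-0.16) were also negative. A positive change was seen for 6 of 8 astrocyte markers (0.09) and 3 of 4 cortical glutamatergic markers tested (0.09). The part of these in the Adora2a levels was not tested.

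A difference in the response to CNO between the receptor lines was not detectable for any of the adenosine genes tested. Genes under the filter, such as Slc29a1 in unbound RNA, were not tested for it. The difference of the changes, Chrm3 minus Chrm4, was called for 0 of 8 in microglia, where 0% of all genes were called and 452 of 11465 had an unadjusted p under 0.05. It was called for 0 of 6 in unbound RNA, where 0.0539% were called and 794 of 11123 had an unadjusted p under 0.05. Adk in microglia had the largest such difference, at 1.37 ± 0.64 (unadjusted p = 0.0498, adjusted p = 1.00, limma). Its change was 0.59 in Chrm3 mice and -0.78 in Chrm4 mice (log2). With CNO it was at 3.44, 2.85 and 10.1 RPKM in Chrm3 mice, where 1 library stood well above the others. With saline it was at 1.49 to 4.33 RPKM in Chrm3 mice and at 6.91 and 12.4 RPKM in Chrm4 mice. Over the alternatives the Adk difference ran from 0.89 to 1.75 and was never called. Entpd3 in unbound RNA had -0.75 ± 0.30 (unadjusted p = 0.0278, adjusted p = 0.648, limma; log2, SE). Voom called none of these.

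**Figure D3:**
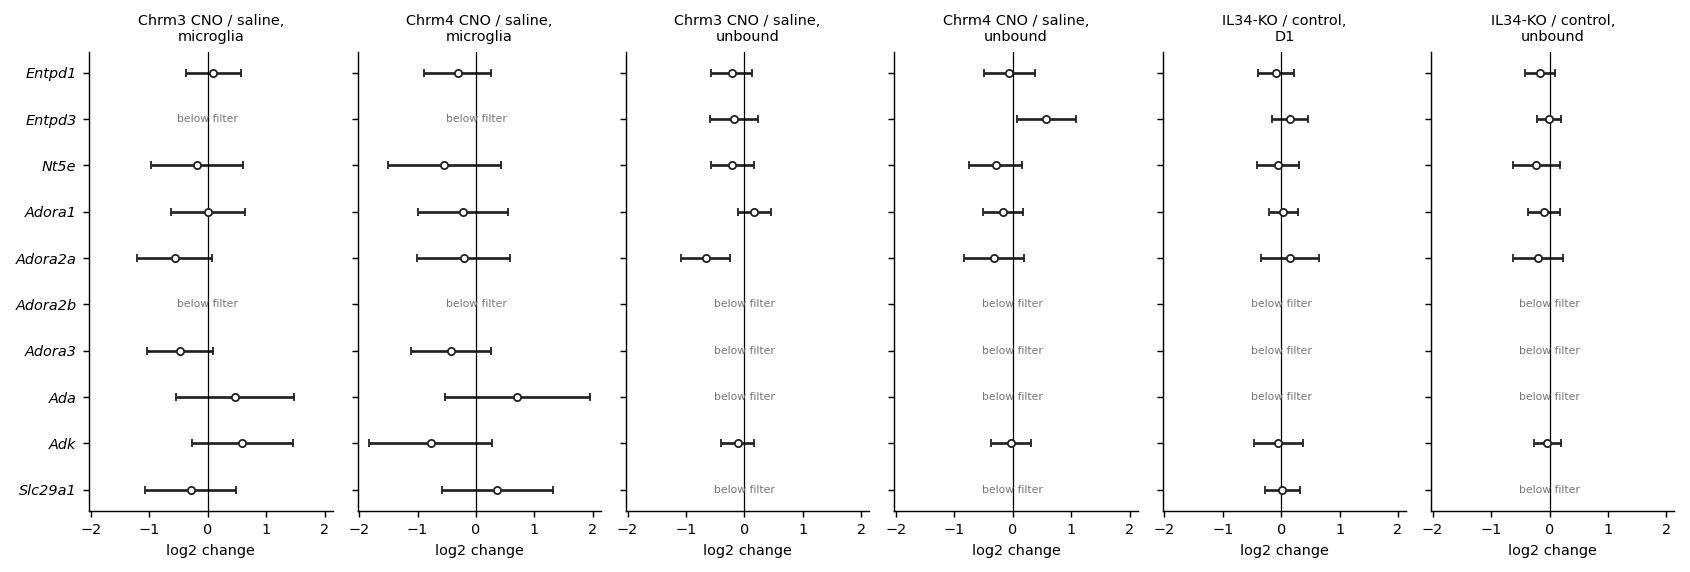
Log2 change with 95% interval (horizontal axis, limma on log2(RPKM + 1)) of each gene with CNO over saline in microglia and unbound RNA of both receptor lines and with IL34-KO over control in D1 neurons and unbound RNA; open circles did not pass the test, and genes under 1 RPKM on average are marked. No circle is filled, and the interval of Adora2a in Chrm3 unbound RNA, -1.08 to -0.25, lies below 0.

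The last comparison set libraries labelled IL34-KO against those labelled control. Il34, a microglial growth factor made by neurons, was not called lower in the libraries labelled IL34-KO: D1 pull-downs were at 9.84 to 11.1 RPKM with that label and 6.56 to 10.5 RPKM with the control label (0.18 ± 0.14, log2, SE; adjusted p = 1.00, limma), and unbound RNA was at 2.02 to 3.14 RPKM with the IL34-KO label and 2.57 to 3.37 RPKM with the control label. Whether a deletion would show in these values is not given in the labels. Of the adenosine genes in D1 neurons, 0 of 7 tested were called and none had an unadjusted p under 0.05 by limma, voom called 0, and 0.00957% of 10452 genes were called, with 160 at an unadjusted p under 0.05. Adora1 was at 27.5, 24.6 and 23.1 RPKM in libraries labelled IL34-KO and 21.4, 26.0, 22.5 and 28.0 RPKM in controls, with a 95% interval of -0.21 to 0.29 (log2). Entpd3 was at 2.53, 3.11 and 3.89 RPKM, against 2.27, 2.70, 2.60 and 3.44 RPKM, with an interval of -0.16 to 0.46. Adora2a was at 4.45, 3.97 and 6.78 RPKM, against 2.66, 5.01, 4.09 and 6.35 RPKM, with an interval of -0.35 to 0.65. Entpd1 was at 2.19, 2.71 and 2.90 RPKM, against 2.48, 2.74, 3.78 and 2.44 RPKM in controls, and Nt5e at 1.27, 1.92 and 0.861 RPKM, against 1.505, 1.65, 1.54 and 1.01 RPKM. Adk was at 8.33, 7.29 and 6.41 RPKM, against 11.7, 7.40, 5.70 and 6.69 RPKM in controls, and Slc29a1 at 1.63, 1.78 and 1.17 RPKM, against 1.16, 1.35, 1.66 and 1.82 RPKM. Changes of all 7 lay between -0.09 and 0.15 (log2). Below the filter, Ada was at 0.125 to 0.723 RPKM in libraries labelled IL34-KO and 0.0932 to 0.206 RPKM in controls, Adora2b at 0.0604 to 0.556 and 0.0649 to 0.279 RPKM, and Adora3 at 0 to 0.0473 and 0 to 0.0632 RPKM. The groups overlapped for all 10 genes.

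In unbound RNA all 6 tested had a change below 0, between -0.22 for Nt5e and -0.02 for Entpd3, against a median of -0.03 for all genes; 0 were called, none had an unadjusted p under 0.05, and 0% of 9853 genes were called (87 with an unadjusted p under 0.05). Entpd1 was at 1.40, 1.83, 1.83 and 1.56 RPKM in libraries labelled IL34-KO and at 1.70, 2.21, 2.56 and 1.51 RPKM in controls, which overlap (-0.16 ± 0.11, adjusted p = 1.00, limma). Adora2a was at 10.98, 13.1, 12.9 and 20.3 RPKM, against 11.9, 15.2, 16.2 and 23.0 RPKM in controls, and Nt5e at 1.76, 3.44, 3.45 and 1.69 RPKM, against 2.69, 3.69, 3.90 and 2.21 RPKM. Adora1, at 9.48 to 14.6 RPKM in libraries labelled IL34-KO and 10.7 to 13.4 RPKM in controls, Adk, at 7.51 to 9.87 and 7.74 to 9.21 RPKM, and Entpd3, at 0.833 to 1.18 and 0.858 to 1.39 RPKM, overlapped too. Below the filter, Ada was at 0.118 to 1.10 RPKM in libraries labelled IL34-KO and 0.180 to 1.45 RPKM in controls, Adora2b at 0.351 to 0.5678 and 0.365 to 0.5001 RPKM, and Slc29a1 at 0.241 to 0.557 and 0.393 to 0.851 RPKM (exact permutation p = 0.743, 0.971 and 0.514). The 12 microglial markers summed to 20.4 to 41.0 RPKM in unbound RNA labelled IL34-KO and 44.4 to 53.4 RPKM in controls, without overlap; all 11 tested had a change below 0, with a median of -0.52, and none was called. Their part in the Entpd1 difference was not tested. Adora3, which like Entpd1 was called higher in the microglial pull-down, had 7, 0, 0 and 6 reads in unbound RNA labelled IL34-KO and 4, 10, 1 and 5 reads in controls (exact permutation p = 0.257). The change in D1 neurons minus that in unbound RNA was called for 0 of 6, by limma and voom, with 0% of 10266 genes called and 100 with an unadjusted p under 0.05.

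The 3 wider lists gave no call in any of the 9 comparisons of CNO or IL34-KO, counting the differences between them. Over those 9, 3 to 7 other nucleotide-cutting enzymes, 13 to 15 transport and metabolism genes and 18 to 20 coupling genes were tested by limma. An unadjusted p under 0.05 was met in 4 of the 9. In unbound RNA of the Chrm3 mice, where 1381 of 11123 genes met it, so did 0 of 6 enzymes, 4 of 14 metabolism genes and 7 of 20 coupling genes. In Chrm3 microglia 4 of 19 coupling genes met it, as did 630 of 11465 genes, and none of the other lists. In unbound RNA of the Chrm4 mice 1 of 14 metabolism genes and 3 of 20 coupling genes met it, as did 559 of 11123 genes. The difference between the receptor lines in unbound RNA had 1 of 6 enzymes, 3 of 14 metabolism genes and 1 of 20 coupling genes, against 794 of 11123 genes. None met it in the other 5 comparisons, which take in the 3 of IL34-KO.

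**Figure D4:**
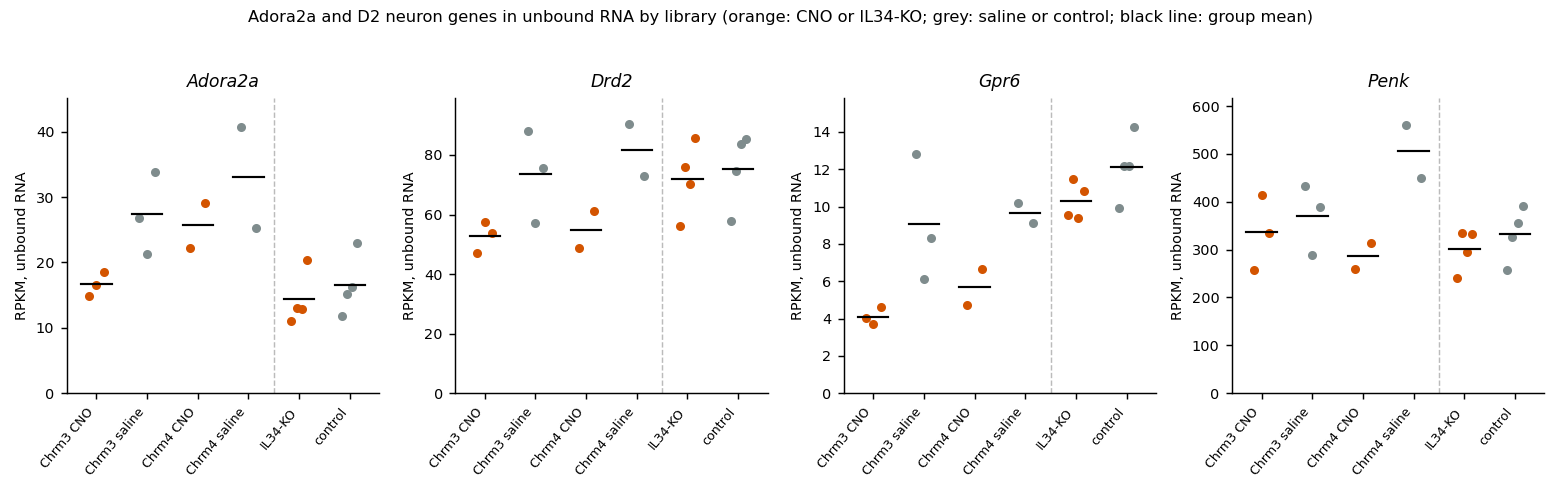
RPKM (vertical axis, from 0) of Adora2a and the D2 neuron markers Drd2, Gpr6 and Penk in each unbound RNA library (horizontal axis, 6 groups; orange for CNO or IL34-KO, grey for saline or control, black lines for group means). Adora2a is at 14.9 to 18.5 RPKM with CNO and 21.4 to 33.9 RPKM with saline in Chrm3 mice, and Gpr6 at 3.69 to 4.59 and 6.12 to 12.8 RPKM.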

How the data were processed

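Ribosome pull-down and unbound RNA of mouse striatum was sequenced on a NextSeq 500 for 75 cycles, per the labels. The authors deposited RPKM in 1 table of 20 and 1 of 15 libraries. bcl2fastq, TopHat2 2.1.0, HTSeq 0.6.0 and DESeq2 and the build mm9 are named in the submitters' processing notes, without roles; the annotation, the gene lengths and the reads that scaled each library are not given in the sources used here. All columns were joined to groups by their headings (0 unmatched); a library's number is its place within its group. 147 of 22707 lines of the larger table hold no values and were left out.

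Genes averaging 1 RPKM or more across a fit's libraries were tested as log2(RPKM + 1) with limma 3.58.1 (trend) in R 4.3.3, two-sided, with Benjamini-Hochberg adjustment over all genes tested and a call at 0.05. A fold is on the log2(RPKM + 1) scale and understates changes of low genes. Comparisons between pull-down and unbound RNA used all libraries of a table; the others used all groups of the fraction. Genes under the filter were tested by exact permutation where p under 0.05 could be reached (scipy 1.17.1). RPKM steps gave whole reads for 100% of 18090 and 18102 genes, within 0.0001 read, in all libraries; these recovered counts are an added basis for the voom alternative. The scripts were tested on simulated data.

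The 10 genes and all lists were chosen with earlier results of these data known. The levels of all 10 are given for each comparison of 2 groups, and for a difference of changes the gene furthest from 0 and the counts. From each wider list, up to 3 called genes with the smallest p are named, and for each gene with a mean of at least 1 RPKM in both tables the 3 genes with the highest correlation. Alternatives were other pseudocounts, no filter, quantile scaling, voom, fits of the compared groups alone and leaving out each library. Gene identities come from GENCODE M21 and promoters from RefSeq (GRCm38.p6), matched by ID or symbol; 9 of 10 genes had a promoter window.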

Additional observations from a re-analysis of the deposited data

Results flagged for a closer look

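Adora1 in unbound RNA labelled IL34-KO had 1 library apart from the rest of its group: it was at 14.6 RPKM, and the other 3 were at 9.48 to 10.3 RPKM. The gap to the nearest library took 0.836 of the range of the group, just past Dixon's critical value for 4 libraries. It was the 1 such value among 30 tests of this kind over the adenosine genes, and chance alone gives about 1 group in 20.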

How the results depend on the processing

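Of the calls for pull-down over unbound RNA, those in microglia kept their direction under every alternative run in which the gene was tested, with 7 or 8 of the genes called: in the 2 alternatives with 7, Entpd3 was under the filter and not tested. In the D1 comparison 4 to 7 genes were called when the scaling, filter or pseudocount changed and 5 or 6 when 1 library was left out. Entpd1 reversed there: quantile scaling gave -0.10, voom on recovered reads -0.34 and rescaling to reads in listed genes -0.22 (log2), none of them called. Under the same 3 scalings Adora1 lost its call (0.06, 0.22 and 0.20) and Adk gained one (-0.97, -1.05 and -0.91). The reads in listed genes per unit of the authors' scaling differ between pull-down and unbound RNA of that set, and the cause of this was not tested. Rescaling to reads in listed genes was added after seeing the data. Every comparison of CNO or IL34-KO had 0 adenosine genes called under every alternative run, leaving out each library included. No paired analysis was possible because the columns carry no replicate numbers. Group levels moved by more than their SD under upper-quartile scaling or the added rescaling in 68 of 264 cases. Groups of 2 or 3 libraries limit the CNO comparisons, and Adora2b, Ada and, outside microglia, Adora3 rest on few reads.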
